A study of Mus musculus with 18 samples.

Results

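Distal colon of mice with dextran sulfate sodium (DSS) colitis was compared between the 3 libraries labelled Il1f5-/- (KO) and the 3 labelled Il1f5+/+ (WT). These 6 of the 18 libraries of the series were chosen by the names of their count columns, and every gene that passed a filter on low counts is described. All mice were labelled C57BL/6 and drank 2.5% DSS, a polymer that injures the colon epithelium, for 5 days and plain water for 2 days. A 0.5 cm piece of distal colon, about 0.5 cm from the anus, gave the RNA, and poly(A) RNA was read without strand as pairs of 150 bases. The same table holds 2 KO and 2 WT libraries of an Il1f9 line under the same DSS course, and the other 8 libraries are tumours of azoxymethane- and DSS-treated mice. Neither the kind of deletion, the breeding of the WT mice, their age nor their housing is stated in the labels, so that litter, cage and genotype cannot be told apart. Nothing in the labels says which libraries were prepared together.

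Il1f5 is an older symbol of Il36rn, whose product antagonises the IL-36 receptor. It occupies the receptor chain Il1rl2 without recruiting the accessory chain Il1rap, and so holds back the agonists Il1f6, Il1f8 and Il1f9, which otherwise signal through Myd88, Irak kinases and Traf6 to NF-kB. In the colon the agonists come mainly from epithelium and myeloid cells after injury, and receptors are found on fibroblasts, epithelium and leukocytes. The comparison asks what changes in injured colon in mice labelled as lacking this antagonist.

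The targeted gene went against the labels. Il1f5 (ENSMUSG00000026983, chromosome 2, 24276954 to 24283426) had 36, 43 and 45 counts in KO 1, 2 and 3 and 0 counts in each WT library. With 3 counts allowed over the WT group, its scaled level was at least 44.8-fold higher in the libraries labelled KO. In tumours of the same line it had 211 and 102 counts in the libraries labelled KO and 0 in each labelled WT. Every library of the Il1f9 line, KO or WT, in colitis or tumour, had 0 counts. Counts per gene leave unsaid which exons were read, and WT libraries at 0 could show no loss. KO and WT below are therefore the labels, and each direction is that of the libraries labelled KO against those labelled WT.

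Library totals ran from 16621611 to 23776174 counts, and mitochondrial genes took 2.89 to 3.56% of them. Y-linked genes such as Kdm5d were read in all 6 libraries. Skeletal muscle and squamous epithelium, which can enter a piece cut near the anus, left few counts: the summed level of 15 skeletal muscle genes was 40.7 to 56.0 CPM (counts scaled to a common total by the TMM method) in KO and 29.6 to 49.997 in WT, with Myh4 and Tnnc2 at 0. The summed level of 18 squamous genes was 28.1 to 30.1 CPM in KO and 31.2 to 39.6 in WT, with Sprr3, Ivl and Krtdap at 0. Of 17 epithelial markers, all were read. KO 3 lay nearer to WT than KO 1 and KO 2 did, as described below, and results that rest on it are given without it.

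Of 18299 genes tested, 2501 (13.7%) were higher and 2015 (11%) lower in the libraries labelled KO, together 24.7%, by edgeR's quasi-likelihood test at an adjusted p under 0.05. The KO and WT libraries did not overlap for 8181 genes (44.7%), among them 2460 of the genes called higher and 1992 of those called lower. Scaling by library totals alone, which moved the median log2 fold change of all genes by 0.06, gave 2845 higher and 1475 lower, or 65.9% of calls higher against 55.4%. The counts leaned on single libraries: genes higher numbered 1443 without KO 1, 1387 without KO 2, 1158 without WT 1 and 1108 without WT 2, and genes lower 1085, 1025, 826 and 856 in that order. Without KO 3 they numbered 3049 and 2537.

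The rises were larger than the falls and came from less abundant genes. Genes called higher had a median absolute log2 fold change of 0.93 (quartiles 0.61 and 1.29), and 44.1% of them at least doubled, 138 by 4-fold or more. Genes called lower had a median of 0.47 (quartiles 0.36 and 0.71), and 13.3% of them were lower by 2-fold or more, 69 by 4-fold or more. Within classes of like abundance the sizes lay nearer, with medians of 1.35 and -1.33 at a mean log2 CPM of 0 to 2 and of 0.64 and -0.46 at 4 to 6. Per length, the authors' FPKM put the median called-higher gene at 2.48, the median called-lower gene at 10.7 and the median gene tested at 3.85. Gene length itself differed little, with a median of 4531 bases for genes higher and 4240 for genes lower.

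**Figure D1:**
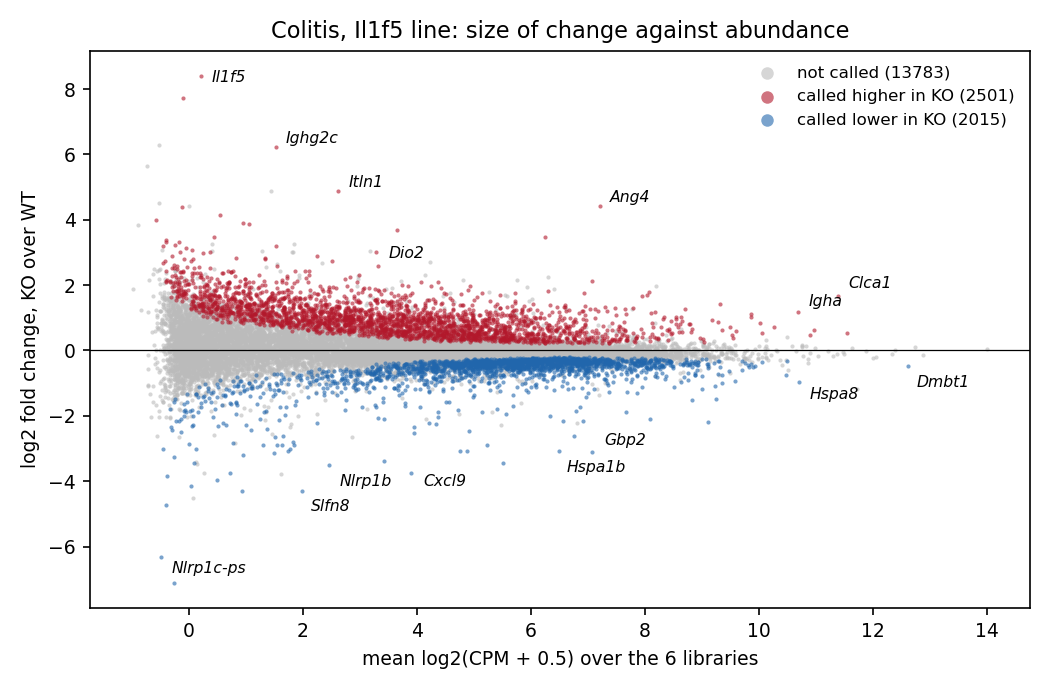
Each point is 1 of 18299 genes, with its mean log2(CPM + 0.5) over the 6 libraries on the horizontal axis and its log2 fold change of KO over WT on the vertical axis. Genes called higher (red, 2501) spread far from 0 at low levels, and genes called lower (blue, 2015) crowd close below 0 at high levels.

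The lean changed with abundance. Among 3759 genes with a mean log2 CPM of 2 to 4, 21.0% were higher and 6.49% lower. Among 3093 genes with a mean log2 CPM of 6 to 8, 8.41% were higher and 22.4% lower. The middle class of 4 to 6 was near balance, with 13.2% higher and 14.9% lower. The larger share was the higher one in every class under 4 and the lower one in both classes from 6 up, also under all 14 other fits that gave a value there (13 for the class under 0), namely other scalings, tests and filters, the replicate block and each library left out. By FPKM the same held, with 15.6% higher and 2.58% lower between 0.1 and 1 FPKM and 8.96% higher and 20.4% lower between 10 and 100 FPKM. The smallest fold that passes depends on depth: called genes under a mean log2 CPM of 0 had a median log2 fold change of 2.09 or -2.15, and those of 6 to 8 of 0.53 or -0.38.

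**Figure D2:**
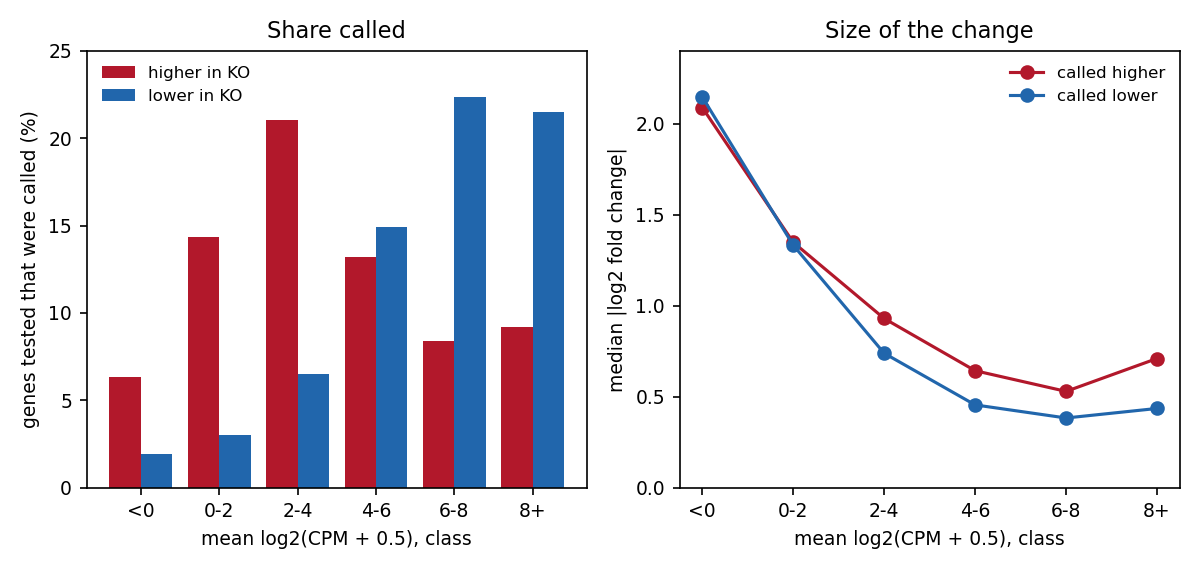
Left, percent of tested genes called higher (red) or lower (blue) in KO in each class of mean log2(CPM + 0.5); right, median absolute log2 fold change of the called genes in the same classes. The red bar is highest at 2 to 4 (21.0%) and the blue bar at 6 to 8 (22.4%), and called folds shrink from about 2 log2 units in the lowest class to under 1 from the class of 2 to 4 upward.

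In counts rather than genes, the called-higher genes took 11.4 to 14.1% of each KO library and 7.19 to 7.85% of each WT library. The called-lower genes took 15 to 16.6% of each KO library and 20.9 to 21.7% of each WT library. Few genes carried the rise: 92 of the genes called higher (3.68%) held 50% of the summed CPM difference of 51634, and the 10 largest held 21.1%. The fall was spread more widely, with 189 genes (9.38%) holding 50% of -64816 CPM and the 10 largest holding 12.3%.

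KO libraries varied more among themselves than WT libraries. Over 12776 genes with a mean log2 CPM of at least 2, the median within-group SD of log2 CPM was 0.155 in KO and 0.0903 in WT, and the KO value was the larger for 71.4% of genes. Between KO 1 and KO 2 alone the median SD was 0.113, larger than in WT for 55.9%. The median absolute log2 difference between 2 KO libraries was 0.159 to 0.202, between 2 WT libraries 0.0937 to 0.113 and between a KO and a WT library 0.180 to 0.312. Thus the farthest KO pair differed by more than the nearest KO and WT libraries did.

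Among the largest falls at middle and high levels were genes that interferon gamma induces. Gbp2, a guanylate-binding GTPase that acts on membranes of intracellular microbes (ENSMUSG00000028270, chromosome 3, 142620602 to 142638008), had 42.6, 32.8 and 66.1 CPM in KO 1, 2 and 3 and 382, 309 and 518 CPM in WT 1, 2 and 3. The groups were far apart (log2 fold change -3.10 ± 0.39, adjusted p = 0.00323). Tgtp1, a GTPase of the same defence, had 1.79, 1.79 and 6.48 CPM in KO 1, 2 and 3 and 40.03, 34.3 and 28.8 CPM in WT 1, 2 and 3 (log2 fold change -3.37 ± 0.47, adjusted p = 0.00354). Cxcl9, a chemokine that draws activated T cells through the receptor Cxcr3, had 2.06, 1.34 and 10.7 CPM in KO 1, 2 and 3 and 41.1, 53.9 and 93.1 CPM in WT 1, 2 and 3 (log2 fold change -3.76 ± 0.82, adjusted p = 0.0206). Its KO 3 value stood well above the other KO values, and its call ended without KO 1, KO 2, WT 2 or WT 3 (adjusted p of 0.0501 to 0.0593). Ido1, which breaks down tryptophan, had 16.7, 4.73 and 25.3 CPM in KO 1, 2 and 3 and 97.5, 222 and 181 CPM in WT 1, 2 and 3 (log2 fold change -3.43 ± 0.76, adjusted p = 0.0219), and its call ended without the same libraries (adjusted p of 0.0503 to 0.0667). Iigp1, another immunity-related GTPase, fell with a log2 fold change of -2.63, and Gbp10, with 0 to 0.620 CPM in KO and 3.62 to 5.52 in WT, with -4.30 (adjusted p = 0.0086 and 0.00308). KO 3 had the highest KO value of all 6 of these genes.

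Socs1, which interferon induces and which in turn shuts off JAK kinases, had 7.26, 7.42 and 12.9 CPM in KO 1, 2 and 3 and 44.3, 48.3 and 38.3 CPM in WT 1, 2 and 3 (log2 fold change -2.25 ± 0.24, adjusted p = 0.000829). Its groups did not overlap, which was a condition for naming it. Of 28 STAT, IRF, JAK and SOCS genes, 6 fell and 1 rose, against 11% and 13.7% of all genes, with a median log2 fold change of -0.11. Irf1, the factor that relays interferon gamma to its targets, had 157, 134 and 178 CPM in KO 1, 2 and 3 and 307, 314 and 292 CPM in WT 1, 2 and 3, and fell (log2 fold change -0.96, adjusted p = 0.001). Irf8, its relative in myeloid cells, fell too (-0.90, adjusted p = 0.00474). The count of falls was 3 without KO 1 or WT 1 and stood between 4 and 8 without any other library. Of 18 leukocyte markers 2 fell (11.1%, against 11% of all genes) and 1 rose (5.56%, against 13.7%), with a median log2 fold change of 0.19. Their summed level was 643 to 1054 CPM in KO and 538 to 735 in WT. The 15 others were not called. Itgax of dendritic cells and Ncr1 of natural killer cells fell (log2 fold change -0.92 and -2.34) and Siglecf of eosinophils rose (1.24). Itgax lost its call without WT 1 or WT 2 (adjusted p = 0.0651 and 0.0585), Ncr1 without KO 2 (0.0824; without WT 1 or WT 2 it was below the count filter) and Siglecf without KO 1, KO 2 or WT 2 (up to 0.0817). The part of leukocyte numbers in the interferon-induced genes was not tested, and in bulk tissue fewer cells of a type and less RNA per cell cannot be told apart.

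The 250 bases before the RefSeq start of 3 genes that fell are shown because interferon-induced genes are known for a bipartite element there, searched here as GAAANNGAAA on both strands. Sequences are from RefSeq on GRCm38.p6: Gbp2 at chr3:142620413-142620662, plus strand, Tgtp1 at chr11:48992247-48992496, minus strand, and Slfn8, described next, at chr11:83020811-83021060, minus strand. Capitals mark the match, which ends 50, 68 and 39 bases before the start.
Gbp2: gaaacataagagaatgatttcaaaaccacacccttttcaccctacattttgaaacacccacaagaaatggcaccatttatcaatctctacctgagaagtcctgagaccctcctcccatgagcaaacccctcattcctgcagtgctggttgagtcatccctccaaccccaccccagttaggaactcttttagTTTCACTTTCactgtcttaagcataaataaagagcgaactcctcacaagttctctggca
Tgtp1: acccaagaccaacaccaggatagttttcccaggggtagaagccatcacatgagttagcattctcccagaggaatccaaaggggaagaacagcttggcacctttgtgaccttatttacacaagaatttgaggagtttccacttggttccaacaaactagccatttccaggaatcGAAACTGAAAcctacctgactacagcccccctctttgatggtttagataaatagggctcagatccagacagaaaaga
Slfn8: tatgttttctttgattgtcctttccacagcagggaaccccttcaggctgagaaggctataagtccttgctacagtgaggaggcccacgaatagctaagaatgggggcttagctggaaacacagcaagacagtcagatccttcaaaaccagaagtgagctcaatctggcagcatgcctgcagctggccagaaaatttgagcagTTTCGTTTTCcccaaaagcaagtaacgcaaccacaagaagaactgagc
The element was in 3.04% of 27025 promoters of this length, in 3.39% of 1535 promoters of genes called lower and in 2.18% of 1789 of genes called higher, so that these matches describe single genes.

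Near-absence in one group marked genes on chromosome 11. Nlrp1b, a sensor that opens the inflammasome (ENSMUSG00000070390, chromosome 11, 71153102 to 71230733), had 1.52, 1.10 and 1.52 CPM in KO 1, 2 and 3 and 15.1, 14.7 and 17.6 CPM in WT 1, 2 and 3 (log2 fold change -3.52 ± 0.19, adjusted p = 8.75e-06), the smallest p of all falls. Its neighbours followed: Nlrp1a had 1 count over the KO group and 38 over the WT group, a 35.1-fold ratio with a 95% counting interval of 5.93 to 1421, and the pseudogene Nlrp1c-ps had 0 and 30 counts, at least 9.23-fold lower. Nlrp1c-ps lost its call without KO 1, KO 2 or WT 1 (adjusted p of 0.0537 to 0.0555) and was below the count filter without WT 2. Slfn8, a Schlafen protein of lymphoid and myeloid cells, had 0.813, 0.249 and 1.01 CPM in KO 1, 2 and 3 and 15.5, 11.8 and 13 CPM in WT 1, 2 and 3 (log2 fold change -4.29 ± 0.33, adjusted p = 9.65e-05). Each of the Nlrp1 and Slfn8 genes has close copies nearby, between which the counting could split reads.

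Several heat shock chaperones were among the genes named for their size of fall or their p, though no list of them was counted. Hspa1b, the inducible HSP70 (ENSMUSG00000090877, chromosome 17, 34956436 to 34959238), had 28.5, 33.7 and 30.4 CPM in KO 1, 2 and 3 and 268, 225 and 285 CPM in WT 1, 2 and 3 (log2 fold change -3.07 ± 0.26, adjusted p = 0.000721). Hspa1a, its nearly identical neighbour, had 9.48, 9.96 and 8.12 CPM in KO 1, 2 and 3 and 76.8, 58.5 and 98.5 CPM in WT 1, 2 and 3 (log2 fold change -3.08 ± 0.31, adjusted p = 0.00118), and reads may be shared between the 2 copies. Hsph1, an exchange factor for HSP70, had 62, 66.1 and 62.3 CPM in KO 1, 2 and 3 and 207, 192 and 233 CPM in WT 1, 2 and 3 (log2 fold change -1.73 ± 0.11, adjusted p = 2.28e-05). The groups did not overlap for any of the 3, which was a condition for naming them, and KO libraries lay close to each other. Upp1, which cleaves uridine, also fell, with 37.9, 29.4 and 122 CPM in KO 1, 2 and 3 and 264, 335 and 251 CPM in WT 1, 2 and 3, but its call (adjusted p = 0.0442) ended without any library except KO 3 (up to 0.114). The constitutive chaperones Hspa8 (1137 to 1289 CPM in KO and 2271 to 2419 in WT) and Hsp90ab1 (1018 to 1214 CPM in KO and 1811 to 1865 in WT) fell by 0.97 and 0.75 on the log2 scale and were among the 5 largest falls in CPM. Cirbp, an RNA-binding protein that cold induces, rose, with 88.8, 76 and 80.02 CPM in KO 1, 2 and 3 and 36.5, 34.3 and 33.8 CPM in WT 1, 2 and 3 (log2 fold change 1.23 ± 0.11, adjusted p = 0.000296). None of these chaperone and Cirbp calls ended when a library was left out.

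Among the largest rises were antimicrobial, mucus and antibody genes. Ang4, an angiogenin of Paneth and goblet cells (ENSMUSG00000060615, chromosome 14, 51763878 to 51773590), had 748, 991 and 399 CPM in KO 1, 2 and 3 and 23.6, 35.5 and 40.9 CPM in WT 1, 2 and 3 (log2 fold change 4.42 ± 0.52, adjusted p = 0.00301). Clca1, a protease of goblet cell mucus, had 5846, 6095 and 2892 CPM in KO 1, 2 and 3 and 1446, 1776 and 1449 CPM in WT 1, 2 and 3 (log2 fold change 1.67 ± 0.27, adjusted p = 0.00394) and gave the largest rise in CPM. Itln1, a lectin for microbial sugars, had 23.9, 63.9 and 11.6 CPM in KO 1, 2 and 3 and 0.268, 0.981 and 2.01 CPM in WT 1, 2 and 3 (log2 fold change 4.87 ± 0.92, adjusted p = 0.0128), but its call ended without WT 2 (adjusted p = 0.0567). KO 3 was the lowest KO library for all 3. Of 23 antimicrobial and mucus genes 7 rose and 1 fell. These are 30.4% and 4.35%, against 13.7% and 11% of all genes, with a median log2 fold change of 0.29, and the 1 that fell, the lectin Reg3g (adjusted p = 0.0485), lost its call without any 1 of the 6 libraries (adjusted p of 0.0675 to 0.140). Clca4b, a relative of Clca1, went the other way, with 252, 317 and 218 CPM in KO 1, 2 and 3 and 1353, 1075 and 1156 CPM in WT 1, 2 and 3 (log2 fold change -2.19 ± 0.43, adjusted p = 0.0123). Dmbt1, a mucus scavenger protein, had 5114 to 5777 CPM in KO and 7192 to 7651 in WT, and its call (adjusted p = 0.0214) ended without KO 1, KO 2, WT 1 or WT 2 (0.0526 to 0.0862).

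Immunoglobulin constant genes followed isotype by isotype. Ighg2c had 9.64, 14.4 and 12.4 CPM in KO 1, 2 and 3 and 0.107, 0.307 and 0.0854 CPM in WT 1, 2 and 3 (log2 fold change 6.23 ± 0.38, adjusted p = 1.78e-05), the smallest p of all rises, and its WT libraries held 2, 5 and 2 counts. Ighg2b had 23.9, 26.3 and 27.5 CPM in KO 1, 2 and 3 and 4.93, 2.64 and 2.18 CPM in WT 1, 2 and 3 (log2 fold change 3.00 ± 0.27, adjusted p = 0.000321). Igha, the heavy chain of mucosal IgA, had 1889, 2607 and 3036 CPM in KO 1, 2 and 3 and 1316, 917 and 1129 CPM in WT 1, 2 and 3 (log2 fold change 1.16 ± 0.25, adjusted p = 0.00996). Ighg1 ranged from 18.4 to 103 CPM in KO and 1.28 to 7.07 in WT, with KO 2 high, and its call (adjusted p = 0.0232) ended without WT 2 or WT 3 (0.0813 and 0.0536). Of 11 B cell follicle genes 1 rose (9.09%, against 13.7% of all genes) and none fell. It was Cxcl13, the chemokine that gathers B cells (19.99, 27.3 and 19 CPM in KO 1, 2 and 3 and 7.07, 7.11 and 11.3 CPM in WT 1, 2 and 3). The summed level of that list was 60.6 to 75 CPM in KO and 45.6 to 52.2 in WT, and its part in the antibody genes was not tested.

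**Figure D3:**
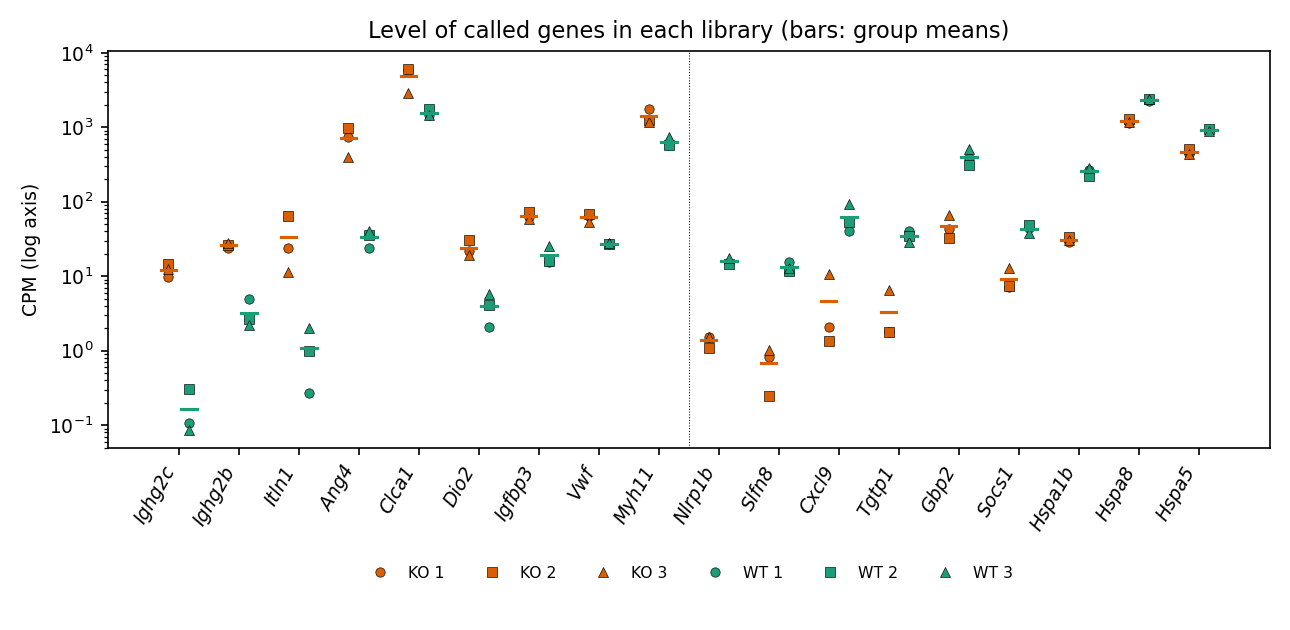
CPM on a log axis of 18 called genes in each library labelled KO (orange) or WT (green), with replicate 1 as a circle, 2 as a square and 3 as a triangle and bars at the group means. The 9 genes left of the dotted line rose and the 9 right of it fell. No gene shown has overlapping groups, which was a condition for choosing them. KO 3 is the KO value nearest to WT for Itln1, Ang4, Clca1, Dio2, Igfbp3, Vwf, Myh11, Slfn8, Cxcl9, Tgtp1, Gbp2 and Socs1. It is not the nearest for Ighg2c, Ighg2b, Hspa1b or Hspa5.

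Of the lists whose members fell, the secretory pathway depended least on single libraries. Proteins that enter the endoplasmic reticulum are folded there by chaperones and disulfide isomerases, and the unfolded protein response, run by Ern1, Atf6 and Perk, induces these helpers when folding lags. Of 24 genes 17 fell and none rose, against 11% of all genes that fell, with a median log2 fold change of -0.57. Hspa5, the HSP70 of that compartment (ENSMUSG00000026864, chromosome 2, 34771970 to 34777547), had 443, 509.9 and 439 CPM in KO 1, 2 and 3 and 921, 939 and 890.4 CPM in WT 1, 2 and 3 (log2 fold change -0.98 ± 0.09, adjusted p = 0.000321). Creld2 had 41, 49.7 and 42.2 CPM in KO 1, 2 and 3 and 74, 88.7 and 81.7 CPM in WT 1, 2 and 3 (log2 fold change -0.88 ± 0.10, adjusted p = 0.000654). Hyou1 and Hsp90b1, further chaperones, fell by 0.88 and 0.82 on the log2 scale and the lectin chaperone Calr and the isomerase Pdia4 by 0.74 and 0.76. The members that did not pass include the stress-induced Ddit3, at -0.04, and Atf4, at -0.14. The list's summed level was 4177 to 4546 CPM in KO and 6510.5 to 7196 in WT, and between 15 and 17 members fell without any 1 library, so KO 3 did not stand apart here. Sec61a1, the channel through which these proteins enter, fell as well (log2 fold change -0.71 ± 0.08, adjusted p = 0.000829). Of 26 genes whose symbol starts with Sec, mostly parts of that channel and of transport vesicles, 11 fell and 1 rose. These are 42.3% and 3.85%, against 11% and 13.7% of all genes.

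The endoplasmic reticulum stress element, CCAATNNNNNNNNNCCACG, to which factors of this response are known to bind, was searched on both strands of the 250 bases before each RefSeq start. It was in 0.122% of 27025 promoters (33 genes) and in 8 of the 21 list members with a RefSeq entry, namely Calr, Canx, Creld2, Dnajc3, Hsp90b1, Hspa5, Pdia6 and Syvn1. All 8 were called lower, in a list picked as genes of this response, of whose 24 members 17 fell. Over all 12465 genes tested that have an entry, 1535 were called lower. The element was in 17 of these promoters, of which 9 were called lower, the ninth being Alg12, and 2 higher, Derl3 and Xlr3b. With no such match, Agr2, Dnajb11, Edem1, Pdia3, Pdia4, Sdf2l1 and Xbp1 fell. Atf4, Ddit3, Dnajb9, Ern1, Herpud1 and Sel1l, also without a match, were not called. The part of the element in these falls was not tested. The stretches of 4 members are printed 5′ to 3′ from GRCm38.p6 with the match in capitals, Hspa5 at chr2:34771840-34772089, plus strand, Hsp90b1 at chr10:86705445-86705694, minus strand, Calr at chr8:84846932-84847181, minus strand and Creld2 at chr15:88819396-88819645, plus strand.
Hspa5: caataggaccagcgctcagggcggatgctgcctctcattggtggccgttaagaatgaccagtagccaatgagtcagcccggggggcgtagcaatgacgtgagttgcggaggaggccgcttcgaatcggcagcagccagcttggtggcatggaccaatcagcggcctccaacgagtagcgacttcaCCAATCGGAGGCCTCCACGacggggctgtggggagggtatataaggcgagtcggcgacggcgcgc
Hsp90b1: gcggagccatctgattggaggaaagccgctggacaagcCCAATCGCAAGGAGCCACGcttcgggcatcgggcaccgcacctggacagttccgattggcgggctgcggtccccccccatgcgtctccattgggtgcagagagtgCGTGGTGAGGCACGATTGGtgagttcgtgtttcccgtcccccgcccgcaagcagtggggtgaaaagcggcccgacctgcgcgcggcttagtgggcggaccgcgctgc
Calr: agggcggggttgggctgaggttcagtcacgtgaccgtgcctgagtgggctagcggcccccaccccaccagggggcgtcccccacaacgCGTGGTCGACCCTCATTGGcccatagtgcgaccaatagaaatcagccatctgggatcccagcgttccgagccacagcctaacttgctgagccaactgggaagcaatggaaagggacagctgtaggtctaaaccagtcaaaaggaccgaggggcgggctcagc
Creld2: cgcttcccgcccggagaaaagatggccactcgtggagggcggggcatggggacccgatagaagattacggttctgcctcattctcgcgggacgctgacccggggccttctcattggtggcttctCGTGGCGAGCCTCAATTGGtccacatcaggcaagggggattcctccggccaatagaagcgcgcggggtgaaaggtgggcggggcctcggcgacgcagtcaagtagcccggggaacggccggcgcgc
The match lies 47 bases before the start of Hspa5, 89 and 194 before that of Hsp90b1, 144 before that of Calr and 108 before that of Creld2, and in Hsp90b1 the nearer copy, like those of Calr and Creld2, is on the opposite strand.

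Other housekeeping machines of protein synthesis and breakdown fell by less. Of 20 cytosolic aminoacyl-tRNA synthetases, which charge tRNAs with amino acids, 13 fell and none rose (65%, against 11% of all genes that fell; median log2 fold change -0.42). Without any 1 library 9 to 15 fell. Wars, the tryptophan enzyme, which interferon gamma also induces, had 148, 139.5 and 158 CPM in KO 1, 2 and 3 and 337, 393 and 362 CPM in WT 1, 2 and 3 (log2 fold change -1.29 ± 0.10, adjusted p = 9.65e-05). Yars and Tars fell by 0.66 and 0.48 on the log2 scale. Of 26 proteasome genes 20 fell and none rose (76.9%, against 11% of all genes that fell, with a median of -0.36). Psma5, a core subunit, had 57.4, 63.4 and 79 CPM in KO 1, 2 and 3 and 101, 96.6 and 91.8 CPM in WT 1, 2 and 3 (log2 fold change -0.54 ± 0.11, adjusted p = 0.00695). Psmb10, a catalytic subunit of the interferon-induced immunoproteasome, had 132, 129 and 194 CPM in KO 1, 2 and 3 and 240.1, 239 and 263 CPM in WT 1, 2 and 3 (log2 fold change -0.70 ± 0.15, adjusted p = 0.00822). In both genes KO 3 lay between the other KO libraries and WT. The proteasome count leaned on most libraries, with 5 falls without KO 1 or WT 2, 6 without KO 2 or WT 1, 9 without WT 3 and 25 without KO 3.

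Cholesterol and DNA synthesis genes were lower chiefly in KO 1 and KO 2. Of 23 genes of cholesterol synthesis and uptake 12 fell and none rose (52.2%, against 11% of all genes that fell, with a median of -0.44). There were 4 falls without WT 1 or WT 2, 7 and 6 without KO 1 and KO 2, and 17 without KO 3. Idi1, an isomerase of the isoprenoid steps, had 24.7, 25.3 and 32.8 CPM in KO 1, 2 and 3 and 59.7, 53 and 47.7 CPM in WT 1, 2 and 3 (log2 fold change -0.95 ± 0.14, adjusted p = 0.00207). WT 3 was the WT library nearest to KO for Idi1, Mvd and Cyp51. Of 31 DNA replication genes 5 fell (16.1%, against 11% of all genes) and none rose (median -0.48), but 22 fell without KO 3, and at most 1 without any other library. The median member stood -0.60 and -0.85 from the WT mean in KO 1 and KO 2 and -0.05 in KO 3. Cdc45, a part of the replicative helicase, had 8.34, 6.47 and 12.3 CPM in KO 1, 2 and 3 and 16, 15.2 and 16.2 CPM in WT 1, 2 and 3 (log2 fold change -0.81 ± 0.25, adjusted p = 0.0365), and lost its call without any library except KO 3 (up to 0.117).

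Of 16 tested genes of the IL-36 receptor pathway 3 were higher and 2 lower. These are 18.8% and 12.5%, against 13.7% and 11% of all genes, with a median log2 fold change of 0.03. Besides Il1f5, the receptor chain Il1rl2 had 6.72, 8.67 and 6.94 CPM in KO 1, 2 and 3 and 3.75, 3.93 and 3.33 CPM in WT 1, 2 and 3 (log2 fold change 1.02 ± 0.21, adjusted p = 0.00683), and the groups did not overlap. Irak3, which damps Irak signalling, had a log2 fold change of 0.55 and lost its call without KO 1, KO 2, WT 1 or WT 2 (adjusted p of 0.0537 to 0.0925). Myd88 and Irak1 had -0.32 and -0.24, and their calls ended without any of 4 libraries for Myd88 (up to 0.0917) and of all 6 for Irak1 (up to 0.0922). The agonist Il1f9 had 2.00, 2.79 and 4.74 CPM in KO 1, 2 and 3 and 1.82, 1.59 and 2.86 CPM in WT 1, 2 and 3, and the groups overlapped (adjusted p = 0.434). Il1f8 had at most 0.684 CPM in any library. The accessory chain Il1rap (log2 fold change 0.11, adjusted p = 0.699), Traf6 (-0.03, 0.795), Irak2 (-0.12, 0.383) and Irak4 (-0.08, 0.53) were not called. Of 21 NF-kB subunits and regulators, 2 rose and 2 fell. This is 9.52% each way, against 13.7% and 11% of all genes. Rel and Bcl3 were lower (-0.56 and -0.53) and Relb higher (0.51), each without overlap, which was a condition for naming them.

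Of 31 ligands, receptors and binding proteins of the PDGF, FGF, VEGF and IGF systems, which carry growth signals among fibroblasts, vessels and epithelium, 18 rose and none fell, against 13.7% of all genes that rose (median log2 fold change 0.66). Igfbp3, which binds insulin-like growth factors, had 62.3, 73.5 and 59.2 CPM in KO 1, 2 and 3 and 15.5, 16 and 25.4 CPM in WT 1, 2 and 3 (log2 fold change 1.77 ± 0.19, adjusted p = 0.000721). Fgf7, a fibroblast factor that acts on epithelium, had 18.7, 30.7 and 19.8 CPM in KO 1, 2 and 3 and 6.38, 8.77 and 8.07 CPM in WT 1, 2 and 3 (log2 fold change 1.58 ± 0.24, adjusted p = 0.00259). Igfbp7 was tight within groups, with 228 to 255 CPM in KO and 142 to 145 in WT. The count was 11 without KO 1, KO 2 or WT 1, 12 without WT 2 and 22 without KO 3.

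Of 36 semaphorins, plexins, slits, netrins and their receptors, which steer axons, vessels and migrating cells, 15 rose (41.7%, against 13.7% of all genes) and 1 fell (median 0.43). There were 8 rises without KO 1, KO 2, WT 1 or WT 2 and 10 without WT 3. Ntn1, a secreted netrin, had 70.9, 70.8 and 57.1 CPM in KO 1, 2 and 3 and 30.8, 28.1 and 35.5 CPM in WT 1, 2 and 3 (log2 fold change 1.07 ± 0.12, adjusted p = 0.000721). Of 23 TGF-beta and activin genes 12 rose (52.2%) and 2 fell (median 0.49). There were 6 rises without WT 1 or WT 2, 7 without KO 1 and 8 without KO 2. Ltbp1, which tethers latent TGF-beta to the matrix, had 59.5, 56 and 44.5 CPM in KO 1, 2 and 3 and 25.8, 25.4 and 29.8 CPM in WT 1, 2 and 3 (log2 fold change 0.98 ± 0.14, adjusted p = 0.00188), while Smad4, the shared signal carrier inside the cell, was lower, with 102, 113 and 107 CPM in KO 1, 2 and 3 and 168, 143 and 151 CPM in WT 1, 2 and 3 (log2 fold change -0.52 ± 0.08, adjusted p = 0.00261).

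With predicted genes and immunoglobulin segments left out of the ranking, Dio2 and Depp1 rose most at middle levels after immunoglobulin constant genes and Itln1. Dio2, which makes active thyroid hormone (ENSMUSG00000007682, chromosome 12, 90724552 to 90738438), had 21.9, 31 and 19 CPM in KO 1, 2 and 3 and 2.09, 4.05 and 5.73 CPM in WT 1, 2 and 3 (log2 fold change 2.59 ± 0.40, adjusted p = 0.00396). Depp1, a stress- and progesterone-induced protein, had 8.51, 9.96 and 6.43 CPM in KO 1, 2 and 3 and 0.857, 1.78 and 1.92 CPM in WT 1, 2 and 3 (log2 fold change 2.44 ± 0.31, adjusted p = 0.00107). At high levels Crispld2, a secreted protein that binds lipopolysaccharide, had 139.5, 204 and 113 CPM in KO 1, 2 and 3 and 34.8, 33.4 and 60.2 CPM in WT 1, 2 and 3 (log2 fold change 1.82 ± 0.30, adjusted p = 0.00608), and the metallothionein Mt1, which binds zinc and copper, 448, 611 and 479 CPM in KO 1, 2 and 3 and 96.7, 135 and 217 CPM in WT 1, 2 and 3 (log2 fold change 1.78 ± 0.27, adjusted p = 0.00416). In each of these 4 the lowest KO library stood above the highest WT library, which was a condition for naming them. Ckb, the brain-type creatine kinase, was steadier, with 232, 229 and 188 CPM in KO 1, 2 and 3 and 84.7, 91.1 and 95 CPM in WT 1, 2 and 3 (log2 fold change 1.26 ± 0.10, adjusted p = 0.00011), and so was the lipid transporter Mfsd2a, which fell, with 11.5, 10.6 and 8.12 CPM in KO 1, 2 and 3 and 41.2, 44.6 and 37.1 CPM in WT 1, 2 and 3 (log2 fold change -2.02 ± 0.14, adjusted p = 5.14e-05). Ereg, an EGF receptor ligand, had 243, 440.0 and 229 CPM in KO 1, 2 and 3 and 35.3, 61 and 114 CPM in WT 1, 2 and 3, and its call (adjusted p = 0.028) ended without KO 1, KO 2, WT 1 or WT 2 (up to 0.0945).

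In 6 further lists the counts stand against 13.7% of all genes that rose and 11% that fell. Of 19 complement genes 5 rose (26.3%), among them the receptor C5ar1 (14.6, 18.6 and 20.8 CPM in KO 1, 2 and 3 and 6.00, 7.67 and 8.59 CPM in WT 1, 2 and 3) and the component C4b (206 to 267 CPM in KO and 120.0 to 143 in WT). The count was 3 without KO 1, WT 1 or WT 2. Of 20 retinoid genes 7 rose (35%) and 1 fell (5%): Cyp26b1, which degrades retinoic acid, had 6.50, 4.48 and 7.39 CPM in KO 1, 2 and 3 and 1.02, 0.859 and 1.84 CPM in WT 1, 2 and 3 (log2 fold change 2.27 ± 0.32, adjusted p = 0.00155), and Dhrs9, which helps make it, was lower (log2 fold change -0.64). The retinoid count was 4 without WT 1 or WT 2. Of 19 clock genes 5 rose (26.3%) and 1 fell (5.26%), with 3 rises without KO 2 or WT 2, and Hlf and Cry2 had log2 fold changes of 1.17 and 0.84. Of 26 redox genes 4 rose (15.4%), with the extracellular Sod3 and Gpx3 at 1.14 and 1.19, and 6 fell (23.1%), with Txn1 at -0.60. Of these, 1 fell without KO 1, WT 1 or WT 2 and 2 without KO 2, and 2 rose without KO 2, WT 1 or WT 2. Of 23 Notch genes 5 rose (21.7%), with Heyl and Hey2, which Notch induces in vessels, at 1.24 and 1.11. None rose without WT 2, 1 without KO 1 or KO 2, and 2 without WT 1. Of 15 Hedgehog genes Gas1 and Gli2 rose (13.3%; 1.27 and 0.94), and Gli2 lost its call without KO 1, WT 1 or WT 2 (up to 0.0630).

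Markers of the deeper wall and of stroma moved with these rises. Against 13.7% of all genes that rose, 100% of endothelial, 85.7% of fibroblast, 78.6% of smooth muscle and 87.5% of neuron and glia markers did. All 14 endothelial markers rose (median 0.94, 12 to 14 without any 1 library), and their summed level was 431 to 539 CPM in KO and 258 to 281 in WT. Vwf, a clotting protein of endothelium, had 63.8, 69.4 and 53.4 CPM in KO 1, 2 and 3 and 27.2, 27.2 and 27.6 CPM in WT 1, 2 and 3 (log2 fold change 1.18 ± 0.15, adjusted p = 0.000987). Of 14 fibroblast markers 12 rose (median 0.71), with sums of 4004 to 4422 and 2491 to 2803 CPM, but 6 without WT 1 and 7 without WT 2. Of 14 smooth muscle markers 11 rose (median 0.91), with sums of 4489 to 6285 and 2668 to 3003 CPM, and the myosin Myh11 had 1783, 1251 and 1168 CPM in KO 1, 2 and 3 and 617, 570.0 and 742 CPM in WT 1, 2 and 3 (log2 fold change 1.12 ± 0.23, adjusted p = 0.00818). Of 16 markers of enteric neurons and glia 14 rose (median 1.42), with sums of 170.1 to 304 and 80.1 to 119 CPM, and 7 without WT 2, 8 without WT 1 and 9 without KO 1 or KO 2. Uchl1, a neuronal ubiquitin enzyme, had 26.8, 34.7 and 20.8 CPM in KO 1, 2 and 3 and 6.54, 6.93 and 10.9 CPM in WT 1, 2 and 3 (log2 fold change 1.75 ± 0.25, adjusted p = 0.00231). Of 27 neuropeptides and receptors 14 rose and 2 fell (51.9% and 7.41%, against 13.7% and 11% of all genes). Their median was 1.16, with 7 rises without KO 2, WT 1 or WT 2 and 8 without KO 1. The part that the share of muscle, nerve and stroma in each piece has in the rises of growth factor, guidance and peptide genes was not tested.

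Markers of the epithelium were lower by less. Of 17 epithelial markers 4 fell and 2 rose, or 23.5% and 11.8%, against 11% and 13.7% of all genes. Their median log2 fold change was -0.22, and 2 or fewer fell without any 1 library except KO 3. Their summed level was 16008 to 18539 CPM in KO and 19199.7 to 20329.9 in WT, so the groups did not overlap. Of 14 genes that mark the distal colon 6 fell and 1 rose (42.9% and 7.14%, against 11% and 13.7% of all genes). There were 3 falls without KO 2 or WT 2 and 4 without WT 1. Their summed level overlapped, at 5292 to 8217 CPM in KO, with KO 3 the highest, and 6543 to 7635 in WT. Aqp4, a water channel, had 115, 104 and 105 CPM in KO 1, 2 and 3 and 455, 489.8 and 252 CPM in WT 1, 2 and 3 (log2 fold change -1.88 ± 0.26, adjusted p = 0.00308). Hoxa13, the homeobox gene of the most distal gut, had 15.8, 8.91 and 12.5 CPM in KO 1, 2 and 3 and 31.9, 30.1 and 18.3 CPM in WT 1, 2 and 3 (log2 fold change -1.11 ± 0.24, adjusted p = 0.0111), and in both genes WT 3 was the lowest WT library. Erythroid genes, a sign of blood in the piece, summed to 50.9 to 134 CPM in KO and 15.1 to 52.1 in WT. Of 6 tested, 3 were higher (50%, against 13.7% of all genes), and none without KO 2, WT 1 or WT 2. Of 6 mesothelial genes 4 rose (66.7%, against 13.7% of all genes), with 1 without KO 2 or WT 1 and 2 without WT 2. Their summed level, however, was 1966 to 2101 CPM in KO and 2111 to 2455 in WT. Of 6 genes of interstitial cells of Cajal, which pace the gut muscle, 5 rose (83.3%, with sums of 233 to 317 and 176 to 195 CPM). Of 11 adipocyte genes only 1 rose (9.09%, against 13.7% of all genes), or 6 without KO 3. Their sums were 374 to 633 CPM in KO and 250.04 to 352 in WT.

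**Figure D4:**
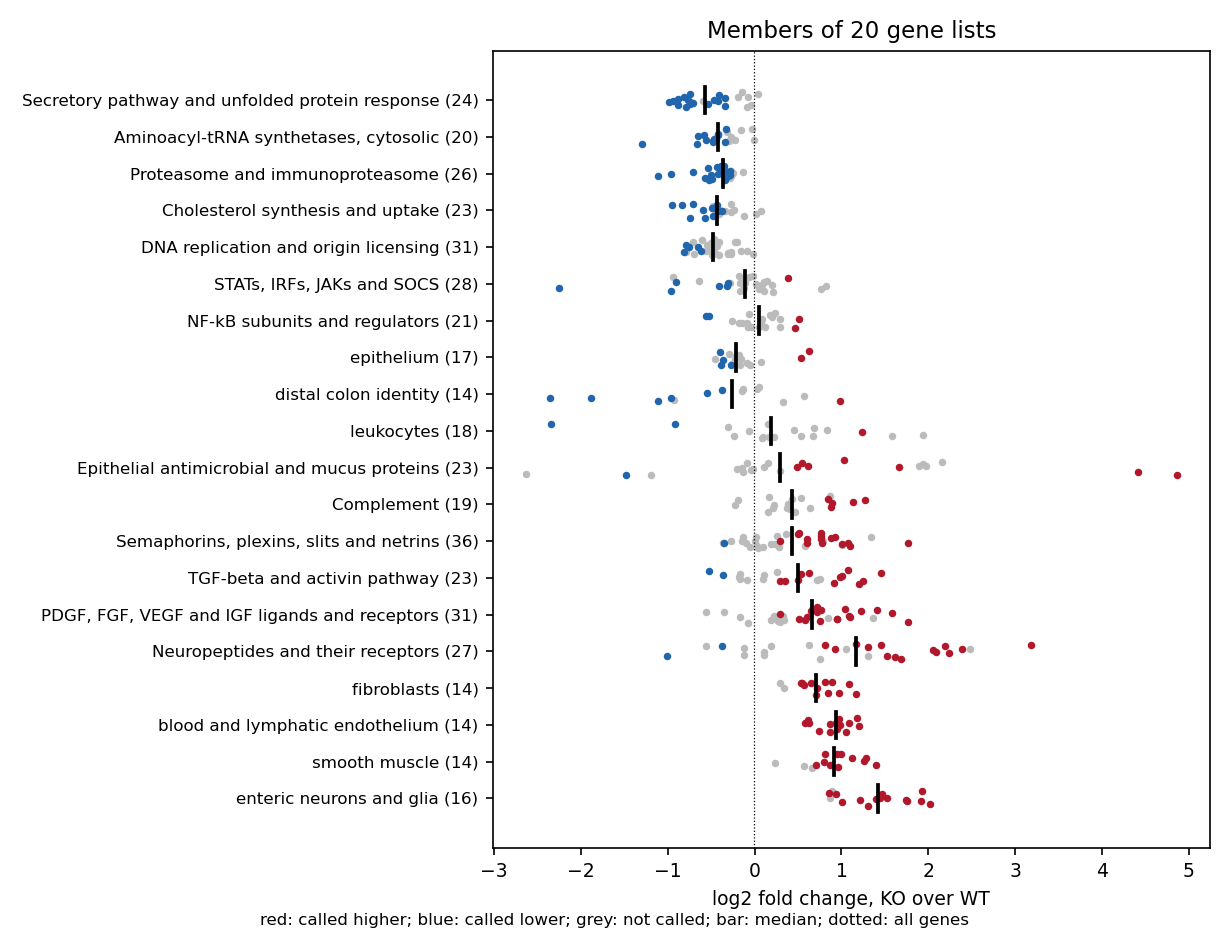
Log2 fold change of KO over WT of each tested member (points; number in brackets) of 20 gene lists, with a black bar at the list's median and a dotted line at the median of all genes tested. The secretory pathway, tRNA synthetase, proteasome, cholesterol and DNA replication lists hold no red point, while endothelium, fibroblasts, smooth muscle and enteric neurons hold no blue point.

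KO 3 stood between KO 1 and KO 2 on one side and WT on the other. The median called-higher gene lay 0.89 and 0.91 above the WT mean on the log2 scale in KO 1 and KO 2 and 0.60 in KO 3, and the median called-lower gene -0.53, -0.53 and -0.35. On the first principal component, which held 40.4% of the variance over the 10 colitis libraries, KO libraries lay at 28.8, 36 and 9.64 and WT libraries at -26.6, -26.0 and -11.1. It did not separate KO from WT across lines, since Il1f9 WT lay at 7.74 and 27.8 and Il1f9 KO at -14.0 and -32.3. The second component, which held 28.6%, did separate them in both lines. On it Il1f5 KO lay at 12.1, 15.5 and 4.45 and Il1f9 KO at 32.3 and 29.5. Il1f5 WT lay at -17.6, -17.4 and -18.8 and Il1f9 WT at -21.8 and -18.2. WT 3 was the WT library nearest to each KO library, with median absolute log2 differences of 0.282, 0.265 and 0.180 from KO 1, 2 and 3. KO 3 was level with its group for the secretory pathway (-0.54) but not for the proteasome (-0.16, against -0.55 and -0.42) or enteric neurons (0.72, against 1.49 and 1.56).

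**Figure D5:**
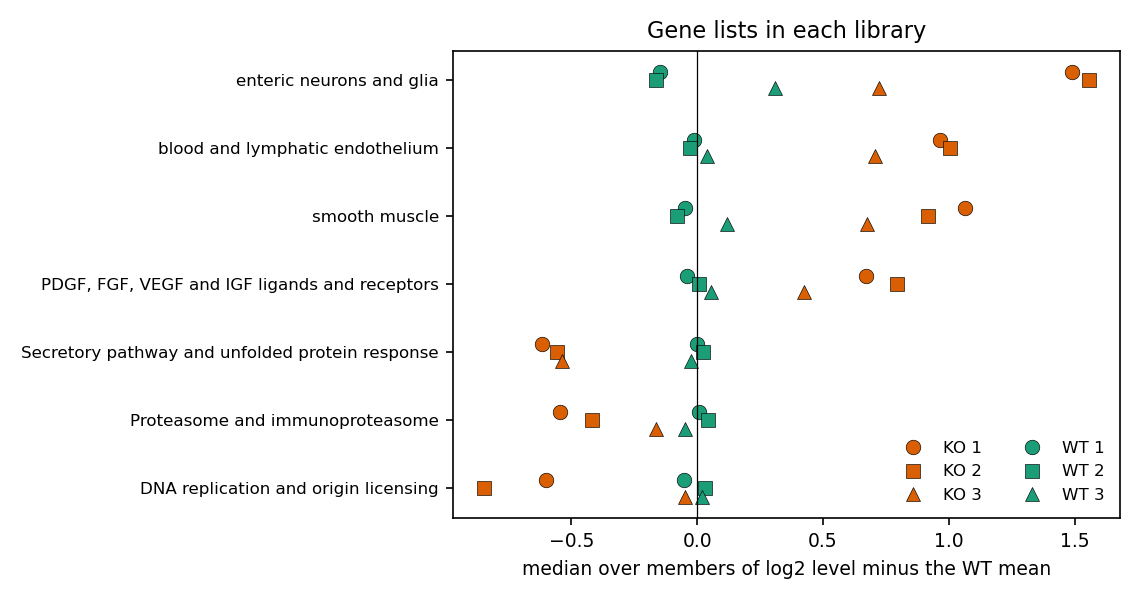
Median over the members of 7 gene lists of the log2 level in each library minus the mean of the WT libraries. KO 1 and KO 2 lie together in most rows, KO 3 (orange triangle) lies nearer to 0 in each row, though by little for the secretory pathway, and its DNA replication value of -0.05 lies among the WT libraries.

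Kinds of gene differed in how often they were called. Of 15080 protein-coding genes 15.7% rose and 12.6% fell, of 493 lincRNAs 6.29% and 1.83%, and of 827 processed pseudogenes 0.967% and 5.20%. Of 1084 transcription factors, as the authors' table marks them, 13% rose and 8.21% fell. The 465 with C2H2 zinc fingers were called less often (8.6% and 4.09%) and the 95 homeobox genes more often (22.1% and 9.47%), with no test of either difference. Among 5282 genes of a mean log2 CPM of 4 to 6, the share higher was 3.64% in genes under 1 kb and 16.9% in genes of 8 kb and over, while the share lower was 10.3% and 13.1%.

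Families of genes that share the start of their symbol leaned in either direction. The 4 with the largest share each way are given beside the 13.7% of all genes that rose and the 11% that fell. Collagens (Col) had 25 of 39 higher and none lower, synaptotagmins (Syt), which time vesicle release, 9 of 17, matrix metalloproteinases (Mmp) 9 of 19 with 2 lower, and phosphodiesterases (Pde) 9 of 20 with 1 lower. Col5a3 had 49.5, 58 and 41.2 CPM in KO 1, 2 and 3 and 14.3, 13.9 and 16.1 CPM in WT 1, 2 and 3 (log2 fold change 1.74 ± 0.21, adjusted p = 0.00137). Mmp2, a protease of basement membrane collagen, had 184, 213 and 156 CPM in KO 1, 2 and 3 and 83.3, 81.7 and 74.7 CPM in WT 1, 2 and 3 (log2 fold change 1.21 ± 0.14, adjusted p = 0.000721). Lower were 9 of 15 Integrator subunits (Ints), which process small nuclear RNAs, 8 of 17 Ly genes, a mixed group of lymphocyte antigens, 11 of 26 Sec genes and 8 of 20 nucleoporins (Nup). Ly6c1 had 105, 105 and 112 CPM in KO 1, 2 and 3 and 230.1, 241 and 309 CPM in WT 1, 2 and 3 (log2 fold change -1.28 ± 0.16, adjusted p = 0.00149). Nup153 had 47.7, 44.7 and 52.9 CPM in KO 1, 2 and 3 and 72, 68.9 and 69.6 CPM in WT 1, 2 and 3 (log2 fold change -0.54 ± 0.08, adjusted p = 0.00262). They were picked as the most extreme of the 112 families with at least 15 tested genes, so their shares are descriptions.

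Called genes were spread over the genome. Over 455 windows of 5 Mb with at least 10 tested genes the median share called was 24.6%, and 5 windows held no called gene. The highest shares were 52.6% of 19 genes on chromosome X from 50 Mb, 50% of 20 on chromosome 2 from 145 Mb and 50% of 18 on chromosome 12 from 50 Mb. Each held genes of both directions, such as Mbnl3 (log2 fold change -0.78) and Rtl8b (0.93) on chromosome X, Insm1 (-1.27) and Slc24a3 (1.16) on chromosome 2 and Heatr5a (-0.72) and Cfl2 (0.54) on chromosome 12.

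The Il1f9 line has 2 KO and 2 WT libraries of its own. Of the genes called higher here, 169 were also higher in Il1f9 KO against WT (6.76% of 2501 and 9.64% of 1754; 9.59% of all genes were higher there), and 341 were lower there (9.98% of all genes were). Of the genes called lower here, 293 were also lower (14.5% of 2015 and 16.0% of 1827) and 235 higher. The difference between the 2 effects was itself called for 2346 genes in the higher direction (12.8%) and 2189 in the lower (12%). Both counts leaned on single libraries: they were 1063 and 899 without Il1f9 KO 2, 1161 and 800 without Il1f9 WT 2, and 1523 and 1323 without Il1f5 WT 2, and the lower count was 1439 without Il1f5 WT 1. In the 4 chromosome 11 genes above and in Ang4, both lines had the same direction in colitis. Nlrp1b was -3.52 here and -5.50 in the Il1f9 line, Slfn8 -4.29 and -4.61, and Ang4 4.42 and 4.78. Hspa1b was -3.07 here and 0.57 there (difference -3.64, adjusted p = 0.00118), and Vwf 1.18 and -1.25 (difference 2.44, adjusted p = 0.000342). Wall and stroma markers differed in the Il1f9 line. Of 14 endothelial markers 7 were lower there (median -0.59), and of 14 fibroblast markers 8 (median -0.78), with none higher. Of 14 smooth muscle markers 12 were higher there (median 1.10), and of 16 markers of enteric neurons and glia 1 was lower and none higher (median 0.08).

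In tumours of the Il1f5 line, with 2 KO and 2 WT libraries, 2 genes were higher (0.0112% of 17859) and 3 lower (0.0168%), with 4106 at an unadjusted p under 0.05, by edgeR. Il1f5 itself was not called there, at a log2 fold change of 10.1, so few calls do not mean few differences. The pseudogene Gm14719 was higher in both tissues, with log2 fold changes of 2.89 ± 0.27 in colitis and 3.79 ± 0.41 in tumours, and the hair keratin Krt84 was higher in tumours (2.16). The tumour suppressor Trp53 (-2.78), the epoxide hydrolase Ephx1 (-2.03) and Gm42047 (-2.82) were lower in tumours and were not called in colitis. Nlrp1b and Slfn8 were low in both groups of these tumours. Nlrp1b had 1.26 and 0.539 CPM in WT and 0.455 and 0.513 in KO. Slfn8 had 0.514 and 0.196 CPM in WT and 0.546 and 0.411 in KO. In tumours of the Il1f9 line KO and WT overlapped for both genes. Nlrp1b had 2.99 and 3.93 CPM in WT and 1.01 and 3.45 in KO there, and Slfn8 5.43 and 3.54 in WT and 1.79 and 5.34 in KO. Of the genes called higher in colitis, 957 of 2156 tested (44.4%) had a positive value in tumours of the Il1f5 line. Of those called lower, 787 of 1987 (39.6%) had a negative one. The median tumour log2 fold change was -0.0725 for the genes higher in colitis and 0.124 for those lower, against 0.0061 over all genes.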

How the data were processed

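Poly(A) RNA of colitic distal colon (10 libraries) and of colon tumours (8) was sequenced, of which the 6 of the Il1f5 line in colitis are described, the 4 of the Il1f9 line in colitis entered the same fit, and the 4 tumour libraries of the Il1f5 line are used for comparison. Per the submitters' processing notes, Trim Galore 0.6.4, HISAT2 2.0.5 and featureCounts 2.0.0 were used, with settings, genome build and annotation not stated. The authors deposited raw counts per gene and, per the file headers, FPKM, which are counts per length and depth. The authors also deposited a signal per group, its mean of scaled counts, made by a tool not stated. Per the file headers, the authors made log2 fold changes of 1 group over another, and raw and adjusted p-values, which the authors deposited with no test named. The authors' deposited table calls 2544 genes higher and 2136 lower, of which 2262 and 1833 were also called here. Of 54532 gene IDs 54409 are in GENCODE's annotation of GRCm38, and 53499 have the same coordinates there, so positions are read as GRCm38. The kit does not keep strand, so reads of overlapping and antisense genes cannot be told apart.

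Counts of the 10 colitis libraries were fitted with edgeR 4.0.16 (R 4.3.3; TMM scaling, filterByExpr, robust quasi-likelihood F test on group means), and p-values were adjusted by Benjamini-Hochberg over all genes tested, with 0.05 as threshold. The contrast of KO and WT, and its difference from that of the Il1f9 line, were tested; tumours had a fit of their own over 8 libraries. Standard errors are the log2 fold change over the square root of F. CPM use TMM-scaled totals, and log2 levels a pseudocount of 0.5. Nothing states that replicates are separate animals, so p-values measure the spread between these libraries, which may be technical. Bounds use 3 counts over a group, and counting intervals (95%, exact) cover counting error only. Alternatives were DESeq2 1.42.0, limma-voom (limma 3.58.1), other scalings, filters and thresholds, the replicate block and each library left out.

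Named genes are Il1f5, members of the IL-36 list, and called genes with no overlap of groups: the 5 largest rises and falls in each of 3 abundance classes (mean log2 CPM under 2, 2 to 6, and from 6), the 5 largest in CPM, the 5 smallest p in each direction and in the line difference, up to 3 per list (2 where none is called), 2 in each of 4 families per direction and 3 in each of 3 windows of 5 Mb. Predicted genes and immunoglobulin segments were left out of the ranking; other names (Atf4, Calr, Ddit3, Hey2, Heyl, Hsp90b1, Pdia4, Gm14719, the genes called in tumours and promoter matches) were chosen after their values were seen. The comparison, its members and the gene lists were chosen with earlier results of these data known. Statistics were tested on simulated counts, and 0 columns of per-sample values belonged to no sample.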

Additional observations from a re-analysis of the deposited data

Results flagged for a closer look

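The KO against WT effect differed between the Il1f5 line and the Il1f9 line by the test of the difference itself, edgeR's contrast of the 2 log2 fold changes, for 2346 genes in the higher direction and 2189 in the lower. Of the genes named by rule, 101 were among them. Without Il1f9 KO 2 these counts were 1063 and 899, and without Il1f9 WT 2 1161 and 800.

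These are the 5 named genes of smallest p in the higher direction. Cxcl12, a stromal chemokine, gave log2 fold change 0.68 in the Il1f5 line and -1.27 in the Il1f9 line, difference 1.94 ± 0.15, adjusted p = 0.000291. Arg1, the arginase of myeloid cells, gave log2 fold change 0.76 in the Il1f5 line and -2.97 in the Il1f9 line, difference 3.72 ± 0.32, adjusted p = 0.000291. The myeloid surface proteins Cd33, Igsf6 and Lrrc25 gave differences of 3.75, 3.49 and 3.18, each with an adjusted p of 0.000291.

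In the lower direction, Abcg5, a sterol exporter of the apical membrane, gave log2 fold change -2.64 in the Il1f5 line and 2.12 in the Il1f9 line, difference -4.76 ± 0.48, adjusted p = 0.000378. Aqp8, a water channel of surface colonocytes, gave log2 fold change -0.13 in the Il1f5 line and 1.81 in the Il1f9 line, difference -1.94 ± 0.18, adjusted p = 0.000342, and its own effect in the Il1f5 line was not called. The difference was -1.75 for the chaperone Hsph1, -2.15 for the iron-binding protein Pir and -2.19 for the calcium-binding protein S100a16, with adjusted p of 0.000342, 0.0004 and 0.0004.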

How the results depend on the processing

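The counts of 2501 genes higher and 2015 lower ran from 1108 to 3049 and from 826 to 2537 when 1 library was left out, and were 861 and 615 at an adjusted p under 0.01 and 1103 and 268 with a log2 fold change of at least 1. The counts of genes whose effect differed between lines, 2346 and 2189, ran from 1063 to 3141 and from 800 to 2703 with 1 library left out, and were 902 and 710 at 0.01, with 614 lower at a log2 difference of at least 1. DESeq2 gave 2622 and 2268, limma-voom 2418 and 2122, and no other scaling or filter moved a count by 1.5 times. Replicate numbers did not pair the libraries: over 12776 genes the deviations of same-numbered KO and WT libraries correlated at -0.0088, -0.192 and -0.213. With the replicate number as a block the counts were 1315 and 1124, and 1382 and 1428 for the difference between lines. Of 182 named genes 166 were called, and 36 lost their call when some library was left out. Signs turned for genes that were not called: leaving out 1 library gave log2 fold changes of -0.249 to 0.000506 for Aqp8, -0.0134 to 0.201 for Il1rap and -0.0874 to 0.00663 for Traf6, and scaling without TMM gave 0.0300 for Traf6 and 0.0123 for Tab2. Scaling without TMM and the refits of abundance classes and lists were chosen after seeing the data. With 16621611 counts or more per library, genes under a mean log2 CPM of 0 that were called had median log2 fold changes of 2.09 and -2.15, against 0.53 and -0.38 at 6 to 8.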

Other observations

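Genes read in only 1 group were searched for after the data were seen, as those with at most 3 counts over a group and at least 5 counts in each library of the other. There were 12 with reads in KO, of which 6 passed the count filter and were called, and 10 with reads in WT, of which 5 did and were. Besides Il1f5, the kappa segment Igkv7-33 had 11, 23 and 43 counts in KO and 0 in each WT library. The eosinophil ribonuclease pseudogene Ear-ps3 had 67 counts over KO and 3 over WT, a ratio of 24.2 with a counting interval of 7.93 to 120, and the lens filament gene Bfsp2 21 and 1, a ratio of 22.8 (3.66 to 941). In WT, Gm16867 had 21, 13 and 18 counts and 0 in each KO library.

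The level of Ighg2c varied widely over all 18 libraries. It had 0.0854 to 0.307 CPM in the Il1f5 WT colitis libraries and 9.64 to 14.4 in KO, but 6.59 and 10.1 in the Il1f9 WT and 15.2 and 20.2 in the Il1f9 KO colitis libraries. In tumours of the Il1f5 line it had 37.6 and 187 CPM in WT and 2.32 and 4.36 in KO, and in tumours of the Il1f9 line 0.505 and 1.95 in WT and 1.15 and 1.19 in KO.

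The pseudogene Gm14719 on chromosome X was higher in every KO group, of both lines and both tissues. It had 1.18 to 1.78 CPM in WT and 8.46 to 15.8 in KO of the Il1f5 line in colitis, and 1.91 to 2.00 and 13.1 to 15.2 in the Il1f9 line. In tumours it had 2.06 and 2.4 in WT and 26.5 and 35.2 in KO of the Il1f5 line, and 2.38 and 2.98 in WT and 13.1 and 30.4 in KO of the Il1f9 line.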
